A study of Mus musculus with 6 samples.

Results

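Glycolysis, the pentose phosphate pathway and the handling of pyruvate were followed through a list of 50 genes named by function, from glucose transporters to the kinases that govern pyruvate dehydrogenase, with the hypoxia regulator Hif1a. Of these, 45 were measured, out of 19937 genes on the arrays. A gene counted as measured where a probe set carried its symbol alone, and where several did, the brightest on average over the 6 arrays stood for it. Gpi1, Pfkfb1, Eno1 and G6pdx had no such probe set and were not analysed here. All 11 probe sets that list Gapdh list several other symbols too, so no value is given for Gapdh alone.

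The cells were lineage-depleted (Lin-) haematopoietic progenitors of the C57BL6 strain that carry Rosa26rtTA, the doxycycline-dependent transactivator in the Rosa26 locus. The 3 arrays labelled EVI1 hold cells given the lentiviral vector pRRL.PPT.Tet.Evi1.IRES.EGFP.pre, in which doxycycline turns on Evi1, a zinc finger transcription factor of stem cells and myeloid leukaemia, together with EGFP. The 3 arrays labelled EGFP hold cells given pRRL.PPT.Tet.EGFP.pre, which makes EGFP alone. Both groups thus carried rtTA, a lentivirus and EGFP, and both grew in serum-free medium with SCF at 50 ng/ml, IL-3 at 20 ng/ml, Flt3 ligand at 50 ng/ml and IL-11 at 50 ng/ml. Transduction followed isolation by 24 h and doxycycline, at 1 µg/ml, followed transduction by 24 h. EGFP-positive cells were sorted 20 h after doxycycline according to the design text, while the treatment protocol gives 24 h. Values are log2 intensities from Affymetrix Mouse Gene ST arrays after RMA, which adjusts background and brings the arrays to a common distribution.

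Glycolysis splits glucose into pyruvate, which is turned into lactate by lactate dehydrogenase or enters mitochondria through pyruvate dehydrogenase. The pentose phosphate pathway branches off after the first phosphorylation and yields NADPH and ribose phosphate for nucleotide synthesis. Blood stem cells are known for a glycolytic metabolism in which pyruvate dehydrogenase kinases keep pyruvate out of mitochondria, and dividing progenitors draw on mitochondria more.

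Several facts of the whole data set touch every result. Mecom, the gene that encodes EVI1, gave no higher signal under the EVI1 label. The brighter of its probe sets read 6.29, 6.18 and 6.49 in EVI1 arrays, against 6.39, 7.53 and 6.86 in EGFP arrays (exact two-sided permutation p = 0.2, where 3 arrays against 3 allow no p under 0.1). The groups overlapped, and whether the Mecom probe sets can read the vector transcript was not tested, so EVI1 and EGFP stand for labels throughout. Over all genes 9.06% were called higher and 9.18% lower, the shares to set beside each marker list here. Markers of S phase and mitosis were lower in all 11 measured cases, and the mean of that list lay between 9.72 and 9.94 in EVI1 arrays and between 10.98 and 11.12 in EGFP arrays. Of 9 progenitor and pan-blood markers 6 were lower, among them Cd34 (-2.45), Mpo (-2.55) and Kit (-0.61), and Ptprc was higher (0.76). That list averaged 9.39 to 9.52 in EVI1 arrays and 10.35 to 10.46 in EGFP arrays. Mast cell and basophil markers were lower in 8 of 10 cases (means of 8.79 to 9.003 in EVI1 arrays and 9.92 to 10.41 in EGFP arrays). Of 10 neutrophil markers 3 were lower and 1 higher (means of 8.39 to 9.25 in EVI1 arrays and 9.45 to 10.31 in EGFP arrays). Macrophage markers were mixed, with 3 of 9 higher and 1 lower, and 4 of the 9 differences were negative. The means of that list were 8.88 to 9.11 in EVI1 arrays and 8.27 to 8.70 in EGFP arrays. Spic (4.58), Cd68 (1.16) and Mrc1 (0.99) were higher and Csf1r (-1.16) was lower, while Adgre1 (-1.08) did not pass. The complement genes C1qa, C1qb and C1qc lay near background in both groups and did not pass. Of 5 measured mature lineage markers, the neutrophil gene Ly6g was higher (8.70 in EVI1 arrays and 6.10 in EGFP arrays on average), while Itgam did not pass (9.57 in EVI1 arrays and 10.61 in EGFP arrays) and Cd4 and Cd8a were at background in both groups. Of 7 erythroid markers, Slc4a1 (1.45) and Epor (0.46) were higher and 5 did not pass (median difference 0.09). Rhag was among these 5, with all EVI1 values above all EGFP values (0.94, adjusted p = 0.0635 by limma), and 3 of the 7 differences were negative. List means were 8.35 to 8.60 in EVI1 arrays and 8.03 to 8.25 in EGFP arrays. Megakaryocyte markers gave 3 of 8 higher and 2 lower, and lymphoid markers 1 of 8 higher and 1 lower. Stromal and endothelial markers gave 2 of 10 higher and 1 lower. The largest rise and fall in these lists were Cdh5 (2.61) and Il7r (-2.46). With the replicate number as a block, 6 neutrophil markers, 2 macrophage markers and 1 mature lineage marker were lower. In that fit 3 erythroid markers were higher, and 10.9% of all genes were higher and 11.0% lower. The part of these shifts in the results on glucose metabolism was not tested, and in such bulk RNA fewer cells of a type and less RNA per cell cannot be told apart.

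Promoter sequences are shown for the members with the largest differences and for Ldha, the partner of Ldhb, because members of a pathway may share short binding sequences. Each window runs from 250 bases before to 50 bases after an annotated start (RefSeq, build GRCm38.p6, 300 bases, 5′ to 3′ on the gene's strand). Capitals mark every match of ACGTG, the core recognised by hypoxia-inducible factors, on either strand, including those inside CACGTG, the E-box bound by MYC and its partners, which holds ACGTG on both strands. The windows are chr6:142507908-142508207 (minus strand) for Ldhb, chr7:46845554-46845853 (plus strand) for Ldha, chr2:11553880-11554179 and chr2:11502041-11502340 (minus strand) for 2 starts of Pfkfb3, and chr6:5496229-5496528 (minus strand) for Pdk4.
Ldhb: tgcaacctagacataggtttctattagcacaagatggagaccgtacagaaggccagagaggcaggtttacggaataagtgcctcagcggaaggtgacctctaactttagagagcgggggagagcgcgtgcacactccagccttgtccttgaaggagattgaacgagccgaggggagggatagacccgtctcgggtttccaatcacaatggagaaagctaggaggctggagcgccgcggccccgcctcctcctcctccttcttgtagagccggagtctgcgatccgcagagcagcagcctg
Ldha: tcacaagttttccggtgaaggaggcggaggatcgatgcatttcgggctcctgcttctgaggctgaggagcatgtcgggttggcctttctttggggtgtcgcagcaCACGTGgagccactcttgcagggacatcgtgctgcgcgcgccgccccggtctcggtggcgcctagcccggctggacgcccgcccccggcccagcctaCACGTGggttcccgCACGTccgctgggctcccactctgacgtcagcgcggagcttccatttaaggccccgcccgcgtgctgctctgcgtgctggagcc
Pfkfb3 first start: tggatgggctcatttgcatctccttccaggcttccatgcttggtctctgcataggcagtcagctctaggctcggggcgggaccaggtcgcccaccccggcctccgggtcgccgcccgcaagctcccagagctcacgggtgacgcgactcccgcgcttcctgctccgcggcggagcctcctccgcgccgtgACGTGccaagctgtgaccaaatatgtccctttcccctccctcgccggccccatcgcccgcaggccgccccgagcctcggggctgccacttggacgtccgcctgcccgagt
Pfkfb3 second start: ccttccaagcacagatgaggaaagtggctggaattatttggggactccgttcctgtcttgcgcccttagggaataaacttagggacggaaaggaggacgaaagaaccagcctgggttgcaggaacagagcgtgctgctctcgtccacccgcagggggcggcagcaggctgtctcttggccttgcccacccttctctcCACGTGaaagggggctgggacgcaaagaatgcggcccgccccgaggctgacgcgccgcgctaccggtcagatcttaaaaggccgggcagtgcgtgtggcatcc
Pdk4: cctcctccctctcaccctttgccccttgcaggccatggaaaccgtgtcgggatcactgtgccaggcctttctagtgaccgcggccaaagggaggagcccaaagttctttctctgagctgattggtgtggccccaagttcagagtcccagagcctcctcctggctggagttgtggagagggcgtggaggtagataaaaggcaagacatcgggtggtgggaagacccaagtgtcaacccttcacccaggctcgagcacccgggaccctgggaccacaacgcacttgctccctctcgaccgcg
The Ldha window printed here holds CACGTG at 2 places and a further core on the opposite strand. Ldha has a second annotated start, whose window (chr7:46846832-46847131) is not printed and holds neither motif. The Ldhb and Pdk4 windows hold neither motif. The window of the first Pfkfb3 start holds 1 ACGTG, and that of the second holds 1 CACGTG, which counts as 2 matches of ACGTG. Of the 45 measured members 44 had a window, with 59 windows in all. ACGTG stood in 45.8% of member windows, against 19.6% of all 32851 windows, and CACGTG in 13.6% against 7.15%. GATAAG, part of the sequence bound by the amino-terminal zinc fingers of EVI1 and by GATA factors, was searched on both strands and stood in 1.69% of member windows, against 7.44% of all windows. Member windows also held more CG dinucleotides (median 18, against 7 over all windows) and more G and C (median 60.7%, against 52.7%). A match is a run of letters and not a measured binding site.

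Across the 45 measured members, 11 were higher and 2 lower in EVI1 arrays at an adjusted p under 0.05 (limma, Benjamini-Hochberg over all genes), and 32 did not pass. That is 24.4% of members higher and 4.44% lower, where the background over all genes was 9.06% higher and 9.18% lower. All 3 EVI1 values lay above all 3 EGFP values in 12 of the 45 members and under them in 7 of the 45, where the background was 16.1% and 16.5%. The median member difference (log2, EVI1 minus EGFP) was 0.10, against 0.006 over all genes, and members ranged from -0.59 to 4.66. Without genes under the 25th percentile of mean level, 9 of 43 members were higher and 2 lower, against 12.3% and 12.5% of genes. Without genes under the median level, 8 of 41 members were higher and 3 lower, against 16.3% and 16.8% of genes. The share of members higher was thus much closer to that of all genes once dim genes were left out. A background mark was set for each group at the level below which 95% of olfactory receptor genes fell. In both groups 6908 of the 19937 genes lay under it, but only 1 of the 45 members. With the replicate number as a block the same 13 calls stood. Aldoc and Gys1 joined the higher and Pgam1 and Pgm2 the lower, giving 13 higher and 4 lower (10.9% and 11.0% of all genes). Leaving out EGFP replicate 2 gave 16 higher and 1 lower (10.2% and 10.3% of all genes). Leaving out EVI1 replicate 3 or EGFP replicate 3 gave 7 higher and 0 lower. Over all genes these 2 removals gave 5.91% and 6.28% higher, and 5.57% and 6.54% lower, so calls over all genes moved too. By limma no member was lower without EVI1 replicate 2 or without EGFP replicate 1 either (6.90% and 7.43% of all genes). At an unadjusted p under 0.05 these 4 removals gave 4 to 7 lower and 11 to 13 higher. The share of all genes was not counted there, so these counts have no background to be read against. Without both replicates 2, 9 were higher and 1 lower (8.21% and 9.06% of all genes).

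**Figure D1:**
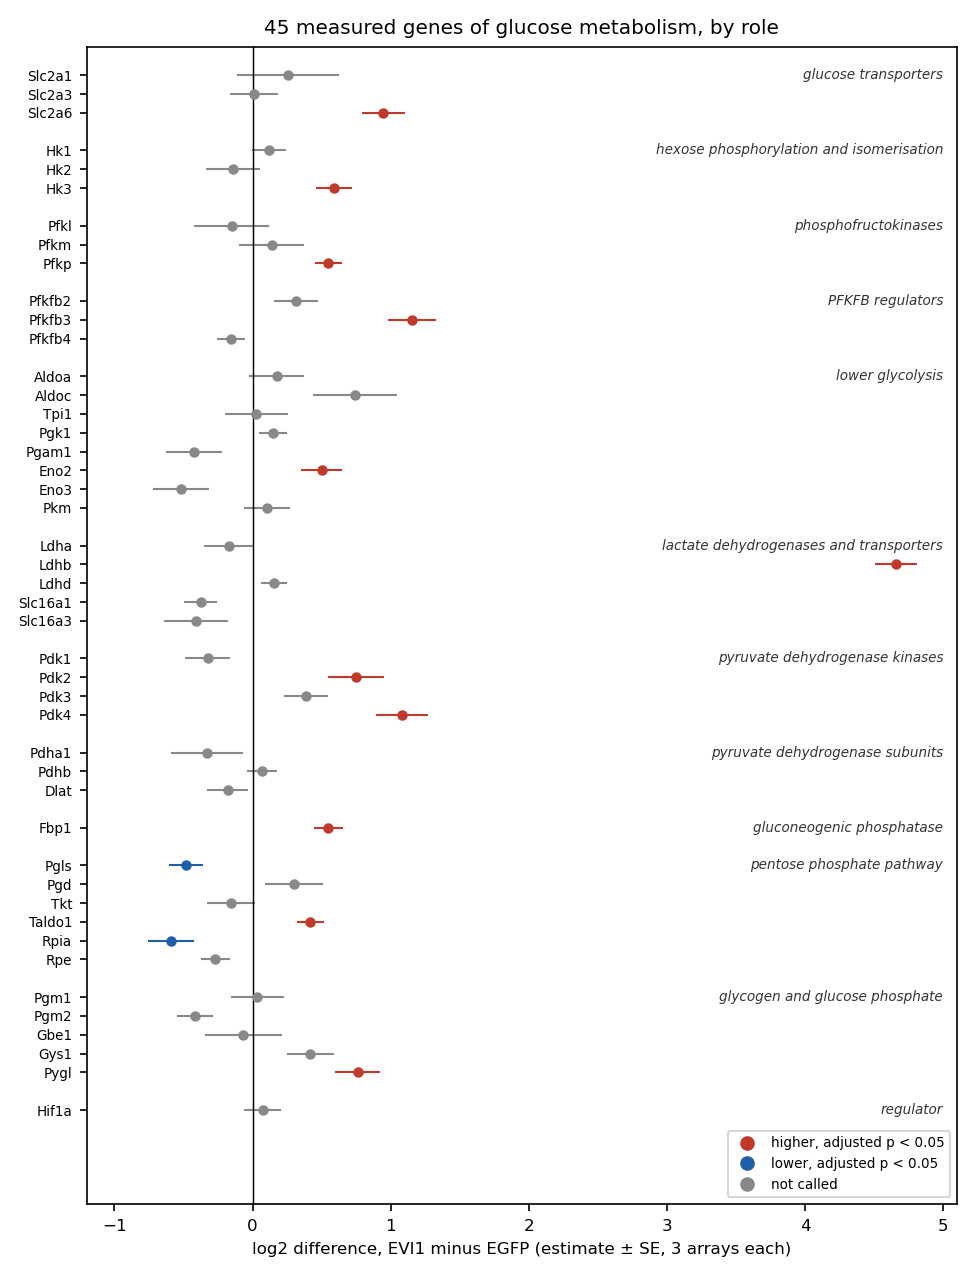
Log2 difference between EVI1 and EGFP arrays (horizontal axis, estimate with its standard error as a bar, 3 arrays per group) for the 45 measured genes, ordered by role down the page; colours give the call at an adjusted p under 0.05. Ldhb stands far to the right at 4.66, the other called genes lie between -0.59 and 1.15, and the genes that did not pass lie on both sides of 0.

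Among the glucose transporters, which let glucose cross the plasma membrane or internal membranes, Slc2a6 rose and the main carriers did not pass. Slc2a6 encodes GLUT6, a transporter of intracellular membranes that is abundant in leukocytes. Its values were 10.28, 10.26 and 10.62 in EVI1 arrays, against 9.26, 9.69 and 9.37 in EGFP arrays (log2 difference 0.95 ± 0.15 SE, adjusted p = 0.00411 by limma). The groups did not overlap. Slc2a1, the widespread carrier GLUT1, read 11.10, 11.81 and 11.68 in EVI1 arrays, against 10.60, 12.14 and 11.08 in EGFP arrays (difference 0.26 ± 0.37). EGFP replicate 2 had the highest of these 6 values and EGFP replicate 1 the lowest, and the difference was 0.69 without EGFP replicate 2 and -0.08 without EGFP replicate 1. For Slc2a3, the high-affinity carrier GLUT3, the difference was 0.01.

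Hexokinases trap glucose in the cell by phosphorylating it, and of the 3 measured only Hk3, the form typical of myeloid cells, passed. Hk3 read 9.27, 9.03 and 9.08 in EVI1 arrays, against 8.71, 8.56 and 8.33 in EGFP arrays. The groups did not overlap, and the difference was 0.59 ± 0.13 (adjusted p = 0.0157 by limma). That call was lost without EVI1 replicate 1, without EVI1 replicate 3 or without EGFP replicate 3 (highest adjusted p = 0.0633). Hk2, the inducible hexokinase bound to mitochondria, differed by -0.14 and Hk1, the widespread form, by 0.12. The Hk1 value is uncertain: its probe set lies among probe sets of genes on chromosome 14, while Hk1 is on chromosome 10, and many further probe sets list Hk1 together with the ribosomal protein gene Rpl17. The other probe set that names Hk1 alone differed by 0.16 and did not pass either.

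Phosphofructokinase commits sugar to glycolysis, and its platelet form Pfkp rose while the liver and muscle forms did not pass. Pfkp was read at 12.26, 12.24 and 12.18 in EVI1 arrays, against 11.68, 11.74 and 11.60 in EGFP arrays. These groups were tight and apart, with a difference of 0.55 ± 0.10 (adjusted p = 0.00651 by limma). Pfkl differed by -0.15 and Pfkm by 0.14, each with overlapping groups. Both of these forms were highest in replicate 2 of each group, with Pfkl at 9.60 in EVI1 replicate 2 and 10.02 in EGFP replicate 2.

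The PFKFB enzymes make and remove fructose-2,6-bisphosphate, the strongest activator of phosphofructokinase, and Pfkfb3 has the highest ratio of making to removing it. Pfkfb3, whose 2 promoter windows are printed above, read 11.21, 10.71 and 10.89 in EVI1 arrays, against 9.87, 10.01 and 9.49 in EGFP arrays. Every EVI1 value was above every EGFP value, and the difference of 1.15 ± 0.18 (adjusted p = 0.00299 by limma) is 2.22-fold. Pfkfb2, the heart form, differed by 0.31 and did not pass (0.46 without EGFP replicate 2, adjusted p = 0.0484). Pfkfb4 read 7.29, 7.29 and 7.20 in EVI1 arrays and 7.49, 7.42 and 7.34 in EGFP arrays. Its groups did not overlap, yet the difference of -0.16 ± 0.10 did not pass.

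The lower part of the pathway, in which triose phosphates are converted to pyruvate with a gain of ATP, held 8 measured genes, of which 1 was higher (12.5%, against 9.06% of all genes). Eno2, the enolase best known from neurons, read 7.20, 7.65 and 7.60 in EVI1 arrays, against 6.96, 7.13 and 6.86 in EGFP arrays (difference 0.50 ± 0.15, adjusted p = 0.0490 by limma). The groups did not overlap, but the margin was narrow: the call was lost without EVI1 replicate 2 or 3 and without EGFP replicate 1 or 3, with adjusted p up to 0.165. The EGFP mean of Eno2, 6.98, lay just above the background mark of the EGFP arrays, 6.95, and EGFP replicate 3 lay under it. The muscle enolase Eno3 read 8.18, 8.27 and 8.08 in EVI1 arrays and 8.44, 9.20 and 8.45 in EGFP arrays, and did not pass (-0.52, adjusted p = 0.128).

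Aldolases split the phosphorylated sugar, and the brain form Aldoc showed the largest difference among members that did not pass. It read 11.45, 11.91 and 11.65 in EVI1 arrays, against 10.54, 11.71 and 10.53 in EGFP arrays (0.74 ± 0.30, adjusted p = 0.148 by limma). EGFP replicate 2 alone reached into the EVI1 range. With the replicate block the adjusted p was 0.0300, and leaving out EGFP replicate 2 gave 1.13 (adjusted p = 0.00144). The general aldolase Aldoa differed by 0.18.

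The remaining steps of the lower part gave small values. Triose phosphate isomerase (Tpi1) differed by 0.03, phosphoglycerate kinase (Pgk1) by 0.15 and pyruvate kinase (Pkm) by 0.10. Phosphoglycerate mutase (Pgam1) differed by -0.42 (adjusted p = 0.224, and 0.0424 with the replicate block), and its probe set lies among probe sets of genes on chromosome 7 rather than those of its own chromosome 19. For Gapdh, the brightest of the shared probe sets averaged 13.77 in EVI1 arrays and 13.85 in EGFP arrays, with Gapdh and its pseudogene-like partners not told apart.

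Lactate dehydrogenase interconverts pyruvate and lactate as a tetramer of A and B subunits, where Ldha predominates in tissues that make lactate and Ldhb in tissues that use it, such as the heart. Ldhb had the largest difference of all members. Ldhb (probe set 10462035) read 11.31, 11.50 and 11.74 in EVI1 arrays, against 6.83, 7.08 and 6.66 in EGFP arrays. The groups lay far apart, by 4.66 ± 0.15 (adjusted p = 4.23e-06 by limma), a 25.3-fold difference. The EGFP mean of Ldhb, 6.86, lay under 6.95, a mark of background below which fell 95% of the 1027 measured olfactory receptor genes. The fold is therefore measured against a level that cannot be told from background. Leaving out any single array kept it between 4.55 and 4.77.

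A second probe set names Ldhb alone, 10549097, and it lies among probe sets of genes on chromosome 6, where Ldhb is. It read 10.74, 10.89 and 11.25 in EVI1 arrays, against 6.92, 7.18 and 6.83 in EGFP arrays, a difference of 3.98 ± 0.17. The brighter probe set lies among probe sets of genes on chromosome 19. Both probe sets thus placed every EVI1 array above every EGFP array, EVI1 replicate 3 being the highest and EGFP replicate 3 the lowest in each. The difference was smaller for the probe set among genes of chromosome 6, 3.98 against 4.66. The 25.3-fold difference and the ratio to Ldha below rest on the brighter probe set.

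Ldha, whose printed window holds 2 E-boxes, moved little. Its values were 12.95, 13.36 and 13.19 in EVI1 arrays, against 13.00, 13.65 and 13.36 in EGFP arrays (-0.17 ± 0.18, adjusted p = 0.659 by limma). The ratio of Ldhb to Ldha was higher in EVI1 arrays by 4.83 ± 0.20 on the log2 scale, with no overlap between groups. Ldhd, the mitochondrial D-lactate dehydrogenase, differed by 0.15 with groups that did not overlap and did not pass.

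Monocarboxylate transporters move lactate and pyruvate across the membrane together with a proton. Slc16a1 (MCT1) read 8.16, 8.21 and 7.96 in EVI1 arrays, against 8.35, 8.51 and 8.60 in EGFP arrays. Its groups did not overlap, but the difference of -0.38 ± 0.12 did not pass (adjusted p = 0.0669 by limma). Slc16a3 (MCT4), the exporter of strongly glycolytic cells, differed by -0.41 with overlapping groups. Among related genes outside the 50, Slc16a4 (MCT5), an orphan member of the same family, read 10.21, 11.00 and 11.24 in EVI1 arrays and 7.93, 7.11 and 7.22 in EGFP arrays, a difference of 3.40 ± 0.30 (adjusted p = 0.000289).

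**Figure D2:**
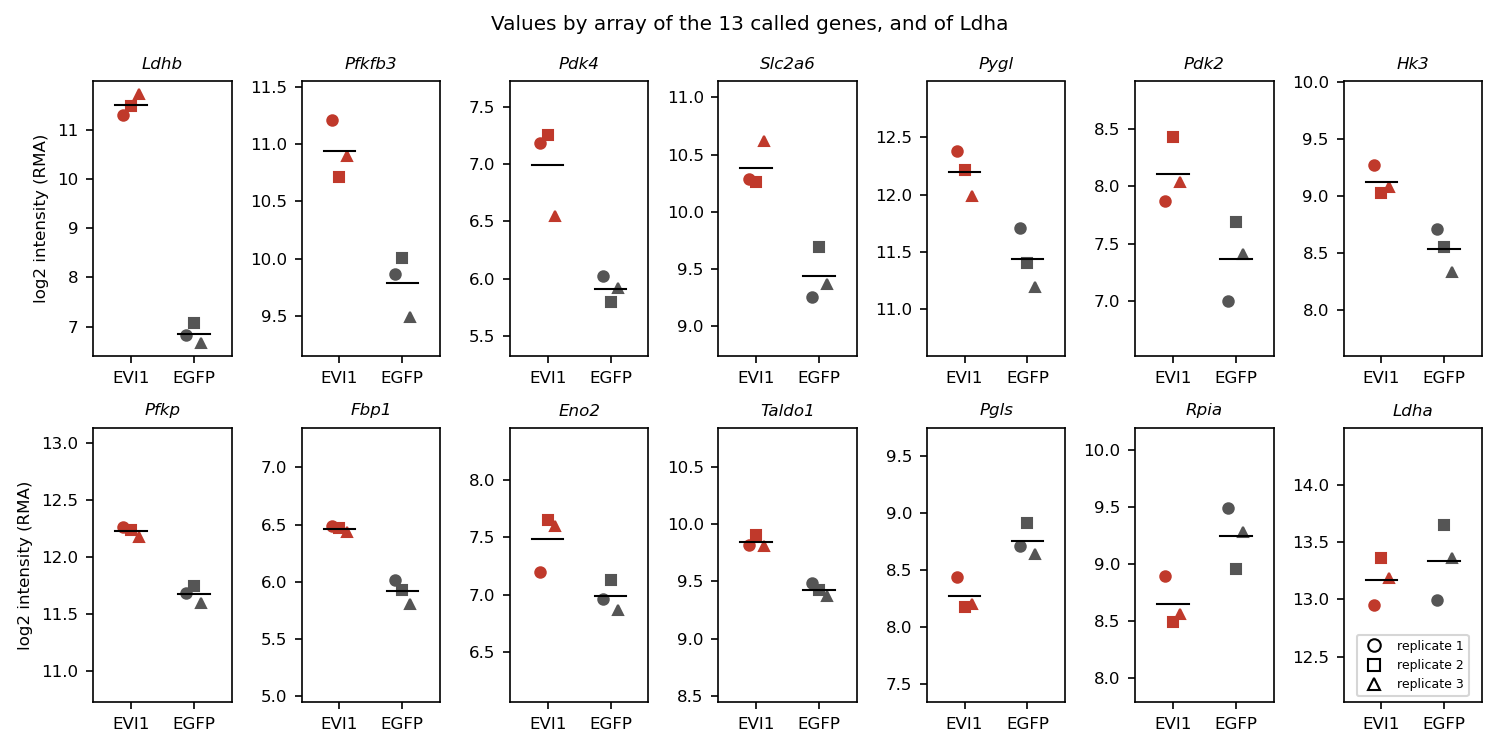
Log2 intensity after RMA (vertical axis, a separate scale for each gene) in the 3 EVI1 arrays (red, left) and the 3 EGFP arrays (grey, right) for the 13 genes that passed and for Ldha; symbols give the replicate number and horizontal lines the group means. In each of the 13 genes the groups are apart, and in Ldha they overlap.

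Pyruvate dehydrogenase kinases phosphorylate and silence the complex that admits pyruvate to the citrate cycle, and 2 of the 4 rose. Pdk4, the form induced by fasting, read 7.18, 7.25 and 6.54 in EVI1 arrays, against 6.02, 5.79 and 5.92 in EGFP arrays (1.08 ± 0.19, adjusted p = 0.00547 by limma). EVI1 replicate 3 was the lowest of its group and still above all EGFP arrays, whose mean lay at background. The EVI1 mean, 6.994, lay barely above the background mark of the EVI1 arrays, 6.986, and EVI1 replicate 3 lay under it. The difference is thus between dim signals. For Pdk2, the widespread form, values were 7.87, 8.43 and 8.04 in EVI1 arrays, against 7.001, 7.69 and 7.41 in EGFP arrays (0.75 ± 0.20, adjusted p = 0.0378). The groups did not overlap, but the call was lost without EVI1 replicate 2 or 3 and without EGFP replicate 1 or 3 (adjusted p up to 0.123).

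Pdk1, the hypoxia-induced kinase, read 9.18, 9.47 and 8.82 in EVI1 arrays and 9.43, 9.51 and 9.51 in EGFP arrays, a difference of -0.33 that did not pass. Pdk3 differed by 0.39 and did not pass (adjusted p = 0.151), though leaving out EGFP replicate 2 gave 0.54 (adjusted p = 0.0236). None of the 3 subunits on the list passed. Pdha1, the E1 alpha subunit that the kinases phosphorylate, read 9.84, 10.75 and 10.30 in EVI1 arrays, against 10.38, 11.08 and 10.42 in EGFP arrays (-0.33). Pdhb, the E1 beta subunit, differed by 0.07 and Dlat, the E2 subunit, by -0.18, and all 3 had overlapping groups.

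The pentose phosphate pathway held both of the falls. Pgls, which opens the lactone made by the first oxidative step, read 8.44, 8.18 and 8.20 in EVI1 arrays, against 8.71, 8.91 and 8.64 in EGFP arrays (-0.48 ± 0.12, adjusted p = 0.0289 by limma). Rpia, which turns ribulose phosphate into the ribose phosphate of nucleotides, read 8.89, 8.49 and 8.56 in EVI1 arrays, against 9.48, 8.95 and 9.28 in EGFP arrays (-0.59 ± 0.17, adjusted p = 0.0435). In both genes every EVI1 value was under every EGFP value, although for Rpia the nearest values were close. The Pgls call was lost in 5 of the 6 removals of a single array, all but that of EVI1 replicate 1 (adjusted p up to 0.104), while its difference stayed between -0.56 and -0.40. The Rpia call was lost without EVI1 replicate 2 or 3 and without EGFP replicate 1 or 3 (adjusted p up to 0.150), with a difference between -0.73 and -0.47 over all removals.

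In the same pathway Taldo1, the transaldolase that returns pentoses to glycolysis, rose. Its values were 9.82, 9.91 and 9.81 in EVI1 arrays, against 9.48, 9.42 and 9.38 in EGFP arrays (0.42 ± 0.10, adjusted p = 0.0202 by limma). The groups were tight and apart, but the call was lost without any single EVI1 array and without EGFP replicate 3 (adjusted p up to 0.0774). Pgd, the second NADPH-yielding enzyme, differed by 0.30, and the transketolase Tkt by -0.16. The epimerase Rpe read 9.14, 9.13 and 9.11 in EVI1 arrays and 9.44, 9.49 and 9.26 in EGFP arrays, apart but not past the test (-0.27, adjusted p = 0.130).

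Glycogen stores glucose, and liver glycogen phosphorylase Pygl, also the form of leukocytes, releases it again. Pygl was read at 12.38, 12.22 and 11.99 in EVI1 arrays, against 11.71, 11.40 and 11.20 in EGFP arrays (0.76 ± 0.16, adjusted p = 0.0128 by limma). All EVI1 values were higher, and in each group replicate 1 was the highest and replicate 3 the lowest. The synthase Gys1 differed by 0.42 (adjusted p = 0.150, and 0.0235 with the replicate block). The branching enzyme Gbe1 differed by -0.07. Of the phosphoglucomutase family, Pgm1 differed by 0.04 and Pgm2 by -0.42, with adjusted p = 0.0619 for Pgm2 and 0.0449 with the replicate block.

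Fbp1, the phosphatase that reverses the phosphofructokinase step in gluconeogenesis, read 6.49, 6.47 and 6.43 in EVI1 arrays, against 6.01, 5.93 and 5.80 in EGFP arrays (0.55 ± 0.10, adjusted p = 0.00781 by limma). It was the only member with both group means under the background marks, and Pdk4 was barely above in EVI1 arrays. The Fbp1 difference is therefore between dim signals. Hif1a, the transcription factor subunit that drives glycolytic genes in low oxygen, read 11.17, 10.94 and 11.02 in EVI1 arrays, against 11.15, 10.74 and 11.03 in EGFP arrays. The groups overlapped closely (0.07 ± 0.13). Across all calls, 7 of the 13 held whichever single array was left out: Ldhb, Pfkfb3, Pdk4, Slc2a6, Pygl, Pfkp and Fbp1. Without both replicates 2 the Pygl call was lost (0.73, adjusted p = 0.0508).

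Within enzyme families, the changes of 10 pairs of members were compared on each array. In 6 pairs the groups did not overlap, which gives an exact two-sided permutation p = 0.1, the smallest possible with 3 arrays against 3, and 0.167 adjusted over the 10 pairs. These were Ldhb over Ldha (4.83), Pdk2 over Pdk1 (1.07 ± 0.23), Hk3 over Hk2 (0.73 ± 0.31), Aldoc over Aldoa (0.57 ± 0.18), Pfkm over Pfkl (0.29 ± 0.08) and Pfkfb4 over Pfkfb3 (-1.31 ± 0.19). The pairs Pfkp over Pfkl (0.70), Hk1 over Hk2 (0.26), Slc2a3 over Slc2a1 (-0.25) and Slc16a3 over Slc16a1 (-0.03) overlapped, with exact p between 0.2 and 1. Pfkm and Pfkl each overlapped on their own, while their ratio did not. The pairs with Ldhb, Pdk2, Hk3 and Pfkfb3 hold a member already called in these arrays, so their separation in part restates those calls. The share of such pairs over all genes was not counted.

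Arrays of the same group also differed among themselves in a shared way. Replicate 2 was the highest array of the EVI1 group for 29 of 45 members (64.4%, against 29.7% of all genes) and of the EGFP group for 31 of 45 (68.9%, against 32.7%). For 23 members (51.1%, against 14.4% of all genes) it was the highest in both. These 23 were Slc2a1, Slc2a3, Hk2, Pfkl, Pfkm, Pfkfb2, Aldoa, Aldoc, Tpi1, Pgk1, Pgam1, Eno2, Eno3, Pkm, Ldha, Slc16a3, Pdk1, Pdk2, Pdha1, Pgd, Tkt, Pgm1 and Gys1, which include most of the measured enzymes between glucose uptake and lactate. Replicate 3 was the highest for 2 members in EVI1 arrays and for 4 in EGFP arrays. This pattern was seen in the values and was not tested, and the labels do not say what the replicates 2 share. Taken within a replicate number, the median member difference was 0.17 for replicate 1, 0.04 for replicate 2 and 0.15 for replicate 3, with 29, 23 and 27 of the 45 members higher in the EVI1 array.

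**Figure D3:**
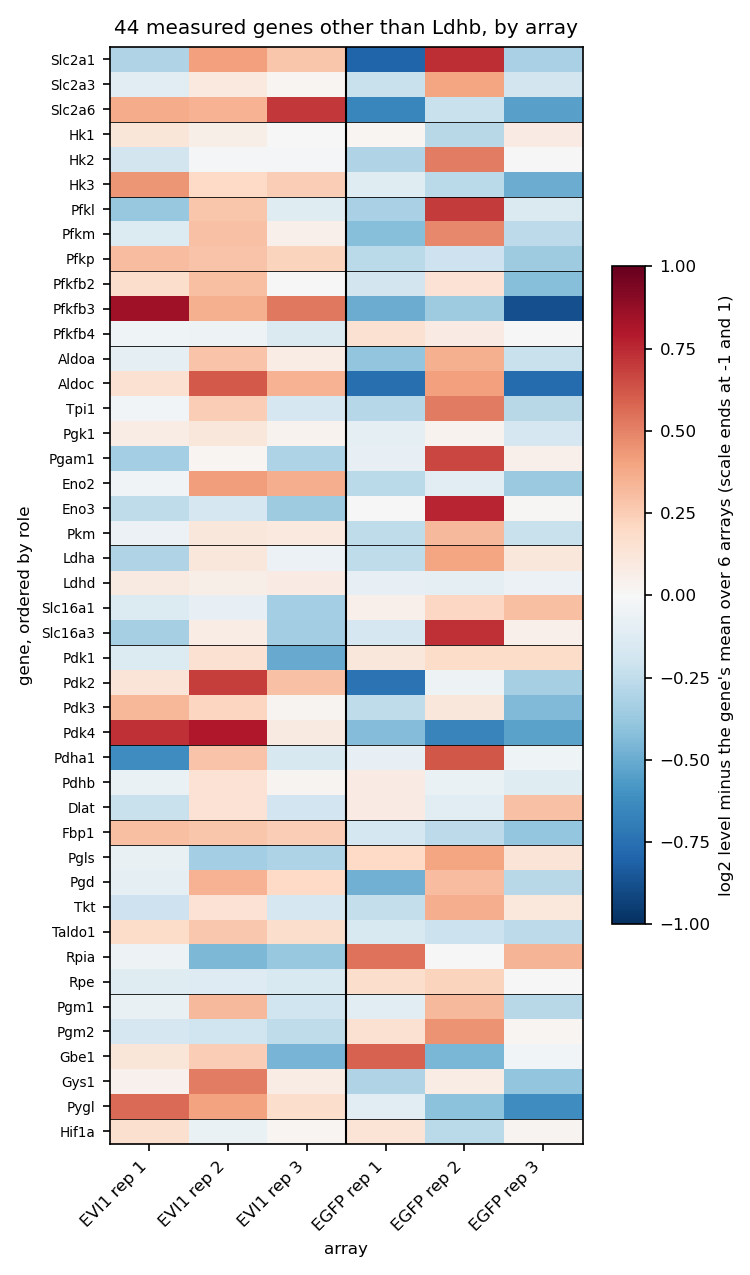
Level of each of 44 members (rows, by role) in each of the 6 arrays (columns, EVI1 left and EGFP right), as log2 intensity minus the mean of the gene over the 6 arrays, red for higher and blue for lower; Ldhb is left out because it runs past the colour scale. The column of EGFP replicate 2 is red for most glycolytic enzymes, while Slc2a6, Pfkfb3 and Pygl, for example, are red in all 3 EVI1 columns and blue in all 3 EGFP columns.

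Related genes outside the 50 were taken from 6 lists, with 109 measured of 116. Of these, 22 were higher and 7 lower (20.2% and 6.42%, against 9.06% and 9.18% of all genes, the shares to set beside each list here), with a median difference of 0.10. Without EVI1 replicate 2, or without EVI1 replicate 3, 14 were higher. Of the 109, 14 lay under the background marks in both groups, against 6908 of the 19937 genes. Among 19 other genes of glycolysis and gluconeogenesis, 2 were higher and 1 lower. Bpgm, which makes the 2,3-bisphosphoglycerate of red cells, was higher by 1.07 ± 0.10 (adjusted p = 0.000417 by limma), and the muscle mutase Pgam2 by 0.79. Of 7 erythroid markers Slc4a1 and Epor were higher too, while 5 did not pass, and 3 of the 7 differences were negative. With the replicate block 3 of the 7 were higher. The part of an erythroid shift in the value of Bpgm was not tested. G6pc3, the glucose-6-phosphatase that neutrophils need, was lower (-0.80, adjusted p = 0.0413). The ADP-dependent glucokinase Adpgk differed by -0.52 and did not pass (adjusted p = 0.101, and 0.0351 with the replicate block).

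Pyruvate and lactate genes numbered 16, of which 3 were higher and 2 lower. Besides Slc16a4, the transporter Slc16a7 (MCT2) was higher by 0.74 and the cytosolic malic enzyme Me1, a source of NADPH, by 0.96 (adjusted p = 0.00249 by limma). Its mitochondrial counterpart Me2 read 10.28, 10.48 and 10.01 in EVI1 arrays, against 11.04, 11.19 and 11.08 in EGFP arrays (-0.85). The groups of both malic enzymes were apart and ran in opposite directions. Pdhx, which anchors a subunit of pyruvate dehydrogenase, was lower (-0.44, adjusted p = 0.0270). Among 12 genes of pentose phosphates and NADPH, 3 were higher: the NAD kinase Nadk (0.61), the mitochondrial glycerol phosphate dehydrogenase Gpd2 (0.53) and the ribokinase Rbks (0.49). H6pd, the hexose-6-phosphate dehydrogenase of the endoplasmic reticulum, differed by 0.18 and did not pass.

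Of 24 genes of glycogen and hexose sugars, 4 were higher and 1 lower. Muscle glycogen phosphorylase Pygm read 8.45, 9.50 and 9.06 in EVI1 arrays, against 6.71, 7.03 and 6.94 in EGFP arrays (2.11 ± 0.24, adjusted p = 0.0008 by limma). Its groups were far apart, and the EGFP mean lay at background. Gyg, the primer of glycogen, was higher by 0.73 and the mutarotase Galm by 0.53. The entry enzyme of hexosamine synthesis showed opposite values for its forms, 0.69 for Gfpt1 and -0.67 for Gfpt2, the EVI1 mean of Gfpt2 lying at background.

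The hypoxia-inducible factor system and its non-glycolytic targets held 22 measured genes, with 8 higher and 2 lower (36.4% and 9.09%, against 9.06% and 9.18% of all genes) and a median difference of 0.35. The same counts were found without EGFP replicate 2, and the replicate block gave 9 higher and 2 lower. Only 2 of the 22 lay under the background marks in both groups, against 6908 of the 19937 genes. The list was not counted without dim genes. Without genes under the median level, 16.3% of genes were higher and 16.8% lower. Vegfa, a growth factor for blood vessels, read 10.59, 10.70 and 10.69 in EVI1 arrays, against 9.66, 9.58 and 9.75 in EGFP arrays (1.00 ± 0.10, adjusted p = 0.000526 by limma). The groups were tight and well apart. Ankrd37 was higher by 1.05, the mitophagy receptor Bnip3l by 0.53 and the MYC antagonist Mxi1 by 0.57. Within the system itself Arnt (0.52), Epas1 (0.56), the hydroxylase Egln3 (0.39) and the factor-inhibiting hydroxylase Hif1an (0.54) were higher. The EGFP mean of Hif1an, 6.93, lay at background. The falls were Ero1a, an oxidase of protein folding, at -0.80 and the carbonic anhydrase Car9 at -0.57. Known targets of the factors were thus found among the genes that rose and among those that fell. Of some known glycolytic targets among the members, Pfkfb3 passed, while Ldha, Pgk1, Slc2a1, Pdk1 and Hk2 did not. These were not taken from a list set in advance, and a link to the factors was not tested.

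Among 16 regulators of glycolysis, 2 were higher and 1 lower. Txnip, which restrains glucose uptake and is itself induced by glucose, read 11.50, 11.83 and 11.47 in EVI1 arrays, against 10.23, 10.40 and 9.83 in EGFP arrays (1.44 ± 0.17, adjusted p = 0.000937 by limma). Foxo1 was higher by 0.70. Myc, a direct activator of many glycolytic genes, read 10.17, 9.10 and 9.78 in EVI1 arrays, against 11.68, 11.24 and 12.12 in EGFP arrays (-2.00 ± 0.30, adjusted p = 0.00269). No array of either group entered the range of the other for Txnip or Myc. Mlx, the partner of the glucose-sensing MondoA, differed by -0.32 and did not pass. A link between these regulators and the members was not tested.

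**Figure D4:**
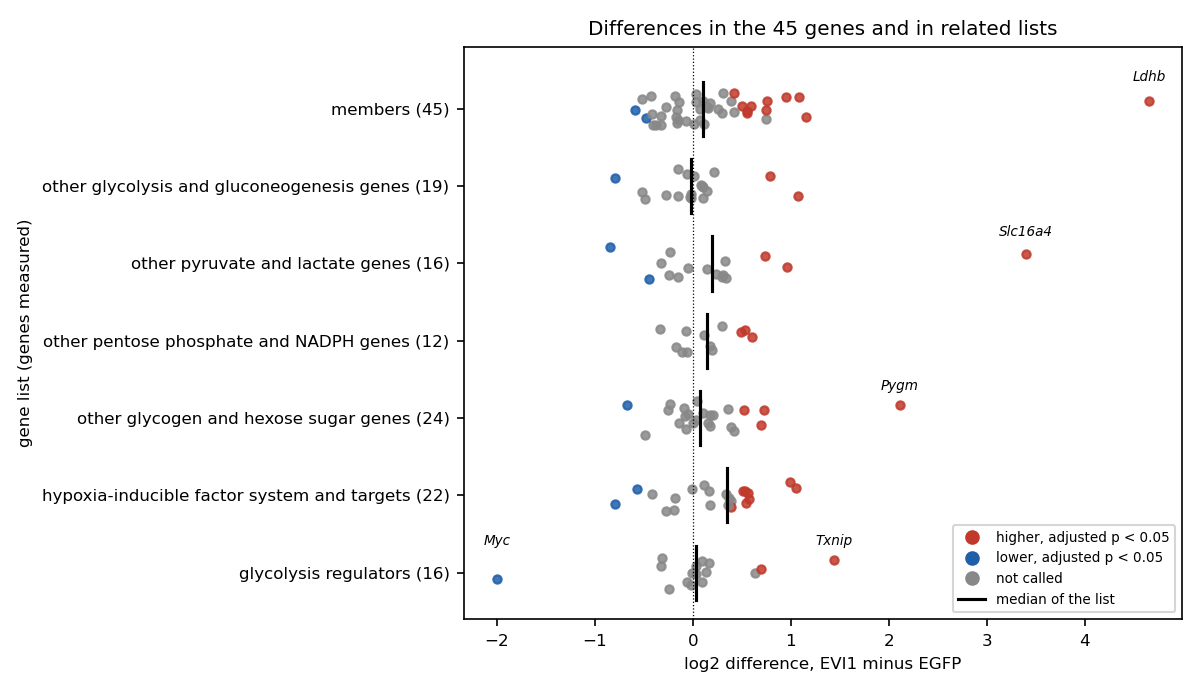
Log2 difference between EVI1 and EGFP arrays (horizontal axis) for the 45 measured members (top) and for 109 related genes in 6 lists; each point is a gene, its colour gives the call at an adjusted p under 0.05, its height within a band is arbitrary, and black lines are list medians. Ldhb at 4.66, Slc16a4 at 3.40, Pygm at 2.11 and Myc at -2.00 stand away from their lists, and the hypoxia list has the highest of the medians drawn, 0.35.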

How the data were processed

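Values were the log2 intensities that the authors deposited, per the submitters' processing notes the output of RMA, whose version is not given in the sources used here. RMA hides a change of total RNA per cell. Of 34760 probe sets, 21640 carried 1 symbol, 1321 several and 11799 were unnamed here. No detection calls were used and no filter on dim signals was applied. The 3 EVI1 and 3 EGFP arrays were compared with limma 3.58.1 in R 4.3.3 (lmFit, eBayes; Benjamini-Hochberg over 19937 genes), tested on simulated data. The number of arrays limits the precision, and no label says that replicates are separate animals or cultures, so p-values measure the spread between these arrays.

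Equal replicate numbers deviated together (r = 0.491, 0.269 and 0.197 across genes), so the numbers were taken to pair arrays, and a fit with the number as a block was an alternative. The reported fit, its SE values, the removals of single arrays and the permutation tests did not use the pairing. The SE of Pdk2 was 0.20 in the reported fit and 0.10 with the block, and that of Slc2a6 was 0.15 in both. Genes that did not pass and calls that were lost are thus those of the unpaired fit, unless the block is named. Further alternatives were dim-signal filters, normalisation, probe set choice, variance estimation, array weights and left-out arrays. Members and lists were chosen with earlier results of these data known. All members were named, with the up to 4 smallest p of each related list and Myc, Hif1a and Txnip. Pdhx, Galm, Car9, Mxi1, Epas1, Hif1an, Arnt, Egln3 and the cell markers were named after their values were seen. Genes were placed on chromosomes by RefSeq, and probe sets by the genes of the 10 nearest probe set identifiers.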

Additional observations from a re-analysis of the deposited data

How the results depend on the processing

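The members called lower were 2 in the reported fit, 4 with the replicate block, and 1 with further quantile normalisation, with trend and robust estimation, or without both replicates 2, a setting chosen after seeing the data. The block changed no other member count by over 1.5 times, and beyond the member calls given beside their genes it changed no other member call. Among related genes it added Adpgk, Cs, Gaa, Pgm3, Egln2 and Arrdc4. Leaving out single arrays gave 7 to 16 members higher, 0 to 2 lower, 1179 to 2037 genes higher and 1110 to 2061 lower over all genes, and 14 to 21 related genes higher. The lowest member counts came without EVI1 replicate 3 or EGFP replicate 3 and the highest without EGFP replicate 2. Small differences changed sign: Tpi1 became -0.028 with further quantile normalisation, and without both replicates 2 Hk2 became 0.046 and Pdhb -5.4e-05. Single removals ranged over -0.080 to 0.69 for Slc2a1, -0.10 to 0.21 for Slc2a3, -0.33 to 0.078 for Hk2, -0.35 to 0.16 for Pfkl, -0.040 to 0.41 for Pfkm, -0.11 to 0.30 for Tpi1, -0.12 to 0.21 for Pgm1, -0.31 to 0.21 for Gbe1 and -0.045 to 0.16 for Hif1a. Calls ended for Eno2 and Rpia with further quantile normalisation, Eno2 and Pdk2 with centred medians, Rpia with trend and robust estimation, and Eno2, Pgls, Taldo1 and Pygl without both replicates 2. The cause of these shifts was not tested. No called member changed direction in any setting run. Leaving out probe sets under the 25th percentile removes Fbp1 and Pdk4 from the genes tested. Probe sets placed on the chromosome of their own gene, also chosen after seeing the data, gave 11 higher and 2 lower.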
